A study of Homo sapiens with 24 samples.

Results

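CADM3, UCHL1, ACKR1, RTN1, FRMD3 and HHIP were 6 genes with normalized counts at or near 0 in control LacZ cells, apart from HHIP, which reached 99.0 there, and at 94.9 or more in every library of cells that carried RBMS3, out of 38849 genes in the series table. They were picked by that difference between the lines, and were found in it by gene symbol. Both lines derive from HMLE, which are human mammary epithelial cells made immortal, with overexpression of RBMS3, an RNA-binding protein, or with LacZ, a bacterial enzyme gene, as the control. Actinomycin D, an inhibitor of transcription, was applied to either line at 10 µg/mL. Cells were taken after 0, 90, 180 and 360 min, with 3 libraries in each of the 8 groups, in a design meant to ask which RNAs change in stability with RBMS3. The libraries read the 3' ends of polyadenylated RNA, so a level here is an RNA level that new transcription should not replace after the drug was given. Whether replicate libraries stem from separate cultures, and whether a line is 1 clone, is not in the labels. The p-values therefore reflect only how far these libraries differ, possibly for technical reasons.

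CADM3 is a cell adhesion molecule of the immunoglobulin superfamily, known from neurons, and UCHL1 is a ubiquitin C-terminal hydrolase that is abundant in neurons and neuroendocrine cells. ACKR1 is an atypical chemokine receptor, the Duffy antigen of red cells and of venular endothelium, which binds chemokines without classical G protein signalling. RTN1 is a reticulon, a membrane protein that shapes the endoplasmic reticulum, FRMD3 carries a FERM domain of the kind that links membranes to the cytoskeleton, and HHIP is a hedgehog-interacting protein that binds hedgehog ligands and holds the pathway down. RNA levels after a transcription block depend on RNA decay, and a table scaled to the library can show a stable RNA at a higher relative level when other RNA is lost.

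The region around the start of transcription is shown for CADM3, whose RNA fell after the drug, for UCHL1, whose relative level rose, and for HHIP, which has an antisense gene beside it. The sequences are from RefSeq (GRCh38.p14), 250 bases before to 50 after the annotated start, 5′ to 3′, all on the plus strand. Capitals mark a match to TATAAA or to the GC box GGGCGG on either strand.
CADM3, chr1:159171365-159171664: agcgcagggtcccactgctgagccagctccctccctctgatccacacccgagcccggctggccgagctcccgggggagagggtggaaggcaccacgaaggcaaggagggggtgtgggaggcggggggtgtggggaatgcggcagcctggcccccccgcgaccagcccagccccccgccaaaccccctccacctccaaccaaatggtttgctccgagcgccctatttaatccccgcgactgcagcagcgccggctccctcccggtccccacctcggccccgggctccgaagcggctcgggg
UCHL1, chr4:41256678-41256977: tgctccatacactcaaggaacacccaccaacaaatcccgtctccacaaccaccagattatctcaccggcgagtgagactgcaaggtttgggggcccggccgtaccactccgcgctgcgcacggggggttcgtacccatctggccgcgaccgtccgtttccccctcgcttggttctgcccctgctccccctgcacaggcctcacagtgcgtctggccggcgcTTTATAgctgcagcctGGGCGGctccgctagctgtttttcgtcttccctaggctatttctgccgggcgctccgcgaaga
HHIP, chr4:144645906-144646205: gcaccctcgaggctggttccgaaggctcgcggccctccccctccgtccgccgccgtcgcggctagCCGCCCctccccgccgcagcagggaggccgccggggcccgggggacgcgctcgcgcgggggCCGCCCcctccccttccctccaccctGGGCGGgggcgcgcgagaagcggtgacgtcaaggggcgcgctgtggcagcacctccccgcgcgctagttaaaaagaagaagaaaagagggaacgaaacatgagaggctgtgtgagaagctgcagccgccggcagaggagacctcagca
The 3 windows were GC-rich, with 72.3% G and C for CADM3, 63.0% for UCHL1 and 72.7% for HHIP, against a median of 58.7% over 34796 RefSeq promoters of the same length. They held 23, 25 and 36 CpG dinucleotides in that order. UCHL1 had a TATA-type match that starts at position -29 and a GC box at -13, HHIP had GC boxes at -185, -124 and -98, and CADM3 had neither. On both strands, TATAAA was present in 11.6% of all promoters and GGGCGG in 44.9%. The windows for RTN1 and FRMD3 each held 41 CpG dinucleotides and 1 GC box, at -34 and -6. The E-box CACCTG, present in 20.6% of promoters, CCAAT, in 34.6%, and TAATTA, in 4.86%, were in none of the 5 members' windows. A match is a description of letters in these windows and shows nothing about binding. No window was used for ACKR1.

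The RBMS3 libraries at 0 min stood apart from the later RBMS3 libraries. The summed level of 12 mammary epithelial markers was 15605 to 16405 at 0 min, 6056 to 6512 at 90 min, 6178 to 6491 at 180 min and 7331 to 7735 at 360 min in RBMS3 cells, while the LacZ libraries lay between 22265 and 27950 at all times. KRT14, a basal keratin, averaged, in RBMS3 cells, 6059 ± 139.6 at 0 min, 791 ± 83.2 at 90 min, 944 ± 37.0 at 180 min and 1184 ± 21.4 at 360 min (SD, n = 3 each). At 0 min it was at 2555 ± 465 in LacZ cells, so that it was higher in RBMS3 cells (log2 1.26; limma adjusted p = 2.43e-09). KRT14 was the exception among the 12 epithelial markers. Of 11 tested at 0 min, 1 was called higher and 8 were called lower, with a median log2 difference of -2.45. TP63 was among those called lower, by -5.93 ± 0.36 (SE, n = 3 each). EPCAM, an epithelial adhesion molecule that defines the type, was at 0.707 ± 1.22 in RBMS3 cells, against 1716 ± 30.3 in LacZ cells, at 0 min (SD, n = 3 each). All 12 mesenchymal markers tested were higher in RBMS3 than in LacZ cells at 0 min, where 18.6% of 12090 genes other than the members were called higher. POSTN, a matrix protein, was at 1775 ± 217 in RBMS3 cells and at 0 in LacZ cells at that time. COL1A2, a collagen chain, was at 669 ± 46.5 in RBMS3 cells and 2.69 ± 4.67 in LacZ cells at 0 min (SD, n = 3 each). The part of the 0 min libraries in the falls described below was not tested, so changes are given both against 0 min and between 90 and 360 min. RBMS3 itself was at 272 ± 79.3 in RBMS3 cells and 97.7 ± 20.5 in LacZ cells at 0 min, a log2 difference of 1.45 ± 0.39 (SE, n = 3 each; limma, Benjamini-Hochberg adjusted p = 0.0061). Sums per library ranged over 6859933 to 8080428 normalized counts in RBMS3 cells and 6638187 to 7741042 in LacZ cells.

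**Figure D1:**
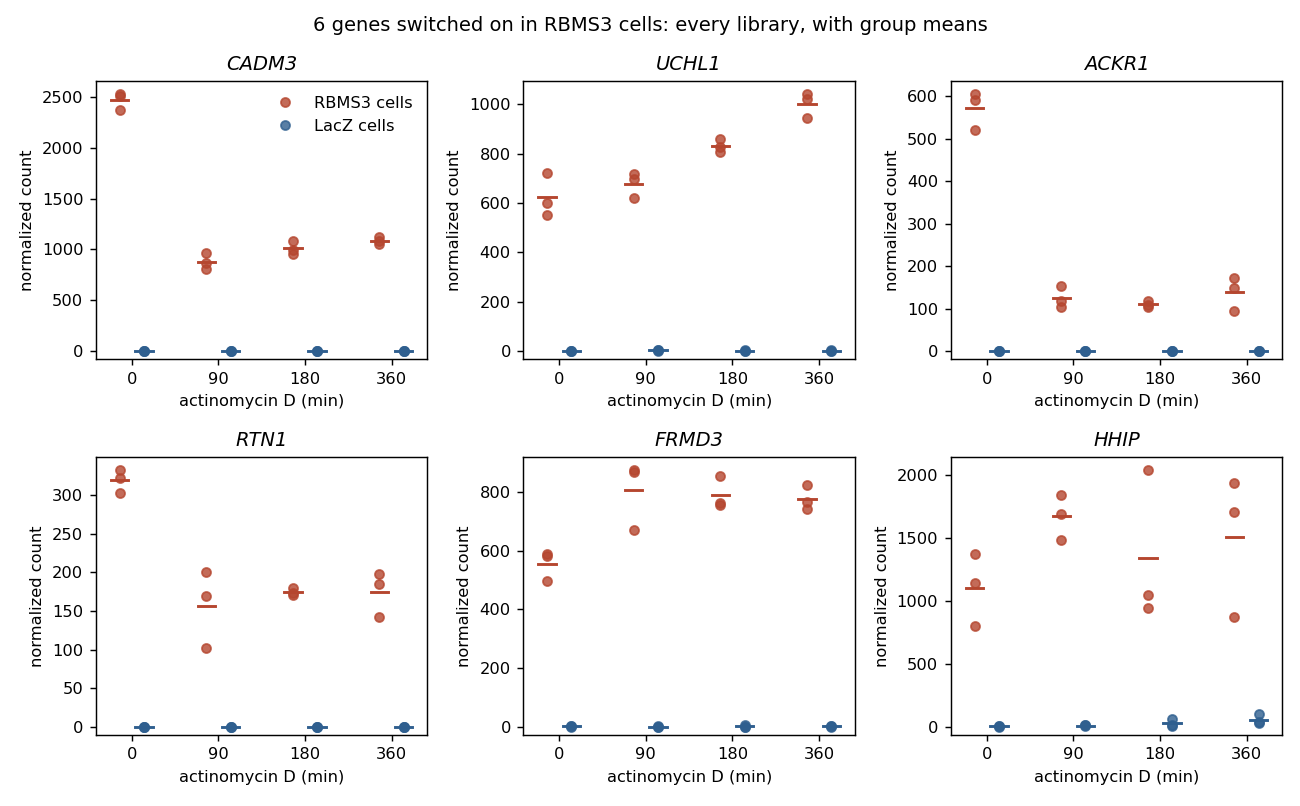
Normalized count of each member (linear axis) in every library against minutes of actinomycin D. RBMS3 cells are red and on the left, LacZ cells blue and on the right, points are libraries and bars are group means; CADM3 averaged 2469 at 0 min and 878 at 90 min in RBMS3 cells, and the LacZ points lie at or near 0 for all members but HHIP, which reached 99.0.

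The difference between the lines chose the members and is given as a description. CADM3, ACKR1 and RTN1 were at 0 in 12 of 12 LacZ libraries. UCHL1 was at 0 in 7 LacZ libraries and at 4.91 at most, and FRMD3 was at 0 in 6 and at 5.71 at most. HHIP was at 0 in 1 LacZ library. In the 3 LacZ libraries at 0 min, the transcript files held 0 estimated reads for CADM3, UCHL1, ACKR1 and RTN1, 3.01, 2 and 0 for FRMD3, and 15, 13 and 0 for HHIP, and a count of 0 allows up to 3 reads per library, from counting error only. For no member did the RBMS3 and LacZ ranges overlap, which largely follows from how the members were picked. In bulk RNA, fewer cells with a transcript and less RNA per cell cannot be told apart.

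Under a stricter reading of on and off, with every LacZ library under 5 and every RBMS3 library at 50 or more, 12 genes of the table qualified, which is 0.134% of the 8929 genes with an RBMS3 mean of at least 50. CADM3, UCHL1, ACKR1 and RTN1 were among them. FRMD3 lay just outside through 1 LacZ library at 5.71, and HHIP through LacZ libraries up to 99.0. The other qualifying genes with the highest RBMS3 means were FBLN5 (an elastic fibre protein), at 2122 in RBMS3 cells and 0.234 in LacZ cells, POSTN at 1256 and 0.0489, NID1 (a basement membrane protein) at 293 and 0.249, GDF6 (a bone morphogenetic protein relative) at 202 and 0.177, and MEG3 (a long non-coding RNA) at 179.7 and 0.234, each pair in the order of RBMS3 then LacZ means over 12 libraries. In the opposite direction, 18 genes were at 50 or more in every LacZ library and under 5 in every RBMS3 library. PRRX1, a mesenchymal homeobox gene, was at 472 ± 27.6 in RBMS3 cells and 2.21 ± 3.83 in LacZ cells at 0 min, and missed the rule through 1 LacZ library at 6.64.

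CADM3 fell early. Its normalized counts in RBMS3 libraries were 2372, 2529.6 and 2506 at 0 min, 808, 864 and 962 at 90 min, 957, 1078 and 992 at 180 min, then 1118, 1087 and 1051 at 360 min. Every 0 min library was above every later library, and the 90 min libraries were the lowest apart from 1 overlap with the 180 min group. The log2 difference from 0 min was -1.49 ± 0.08 at 90 min (SE, n = 3 each; limma adjusted p = 1.27e-07), -1.29 ± 0.08 at 180 min (2.46e-07) and -1.19 ± 0.08 at 360 min (2.90e-07), so that the 90 min level was 0.355 of the 0 min level. The 360 min level was above the 90 min level by 0.31 ± 0.08 on the log2 scale (adjusted p = 0.016), a call that was lost without 90 min replicate 1 (adjusted p = 0.070), without 360 min replicate 1 (0.060) and with all 24 libraries in the model (0.38), and that turned to -0.12 with libraries scaled to ribosomal protein genes.

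ACKR1 had the largest fall of the 6 on the log2 scale. It had 522, 591 and 606 normalized counts at 0 min, 153, 103 and 119 at 90 min, 105, 108 and 117 at 180 min, then 148, 173 and 94.9 at 360 min in RBMS3 cells. No later library reached the lowest 0 min library, and the 90, 180 and 360 min groups overlapped. The log2 difference from 0 min was -2.20 ± 0.22 at 90 min (SE, n = 3 each; limma adjusted p = 2.34e-05), -2.37 ± 0.22 at 180 min (7.74e-06) and -2.08 ± 0.22 at 360 min (9.37e-06). At 90 min that placed ACKR1 at percentile 1.79 of the genes tested and CADM3 at percentile 4.49. Between 90 and 360 min the difference was 0.12 with an interval of -0.34 to 0.59 (adjusted p = 0.75).

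RTN1 also fell. It had 303, 322 and 333 normalized counts at 0 min, 199.9, 102 and 169 at 90 min, 173, 170.2 and 179 at 180 min, then 198, 185 and 143 at 360 min in RBMS3 cells. The 0 min group lay above all later libraries, and the 3 later groups overlapped. The log2 difference from 0 min was -1.07 ± 0.22 at 90 min (SE, n = 3 each; limma adjusted p = 0.0048), -0.87 ± 0.22 at 180 min (0.0095) and -0.87 ± 0.22 at 360 min (0.0063). With all 24 libraries in the model the 180 min call was lost (adjusted p = 0.053). Between 90 and 360 min the difference was 0.20 with an interval of -0.28 to 0.67 (adjusted p = 0.59).

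UCHL1 was called lower at no time. Its normalized counts were 553, 599.6 and 721 at 0 min, 716, 620.4 and 699 at 90 min, 861, 806 and 829 at 180 min, then 1020.3, 1043 and 945 at 360 min in RBMS3 cells. The 0 and 90 min groups overlapped, the 180 min group lay above both, and the 360 min group lay above all others. The log2 difference from 0 min was 0.13 ± 0.10 at 90 min (SE, n = 3 each; limma adjusted p = 0.44), 0.42 ± 0.10 at 180 min (0.0086) and 0.69 ± 0.10 at 360 min (1.87e-04), and the 360 min level was above the 90 min level by 0.56 ± 0.10 (0.0023). These rises are relative to the library, and scaling to 78 ribosomal protein genes changed them. The 180 min value was then 0.25 (adjusted p = 0.075) and the 360 against 90 min value 0.14 (0.31), while the 360 against 0 min call held. With all 24 libraries in the model, the 180 min, 360 min and 360 against 90 min calls were lost (adjusted p = 0.52, 0.23 and 0.45).

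FRMD3 was higher after the drug than before it. It had 582, 588 and 498 normalized counts at 0 min, 877, 869 and 671 at 90 min, 754, 763 and 855 at 180 min, then 767, 743 and 823 at 360 min in RBMS3 cells. Every later library was above every 0 min library, and the later groups overlapped. The log2 difference from 0 min was 0.53 ± 0.12 at 90 min (SE, n = 3 each; limma adjusted p = 0.0078), 0.51 ± 0.12 at 180 min (0.0055) and 0.49 ± 0.12 at 360 min (0.0049), but 0.34 at 180 min (0.059) and 0.080 at 360 min (0.63) with scaling to ribosomal protein genes. All 3 calls were lost with all 24 libraries in the model (adjusted p = 0.62, 0.58 and 0.57). Between 90 and 360 min the difference was -0.04 (adjusted p = 0.85), and -0.47 (0.014) with scaling to ribosomal protein genes.

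HHIP had a wide spread within the 180 and 360 min groups. It had 799, 1144 and 1377 normalized counts at 0 min, 1487, 1693 and 1847 at 90 min, 942, 2046 and 1049 at 180 min, then 1708, 876 and 1939.5 at 360 min in RBMS3 cells. The 90 min group lay above the 0 min group, and the other groups overlapped. No time passed against 0 min, with log2 differences of 0.63 ± 0.32 at 90 min (SE, n = 3 each; limma adjusted p = 0.21), 0.23 ± 0.32 at 180 min (0.63) and 0.40 ± 0.32 at 360 min (0.34; the last was -0.0032 with scaling to ribosomal protein genes). In LacZ cells HHIP was at 5.0, 5.35 and 0 at 0 min, 9.59, 12.8 and 5.52 at 90 min, 5.96, 57.9 and 16.6 at 180 min, then 99.0, 33.7 and 26.5 at 360 min. All 3 LacZ libraries at 360 min were above all 3 at 0 and 90 min, a pattern chosen after the values were seen and not tested. It rests on the table alone, whose HHIP values differed from the estimated reads, as given below.

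**Figure D2:**
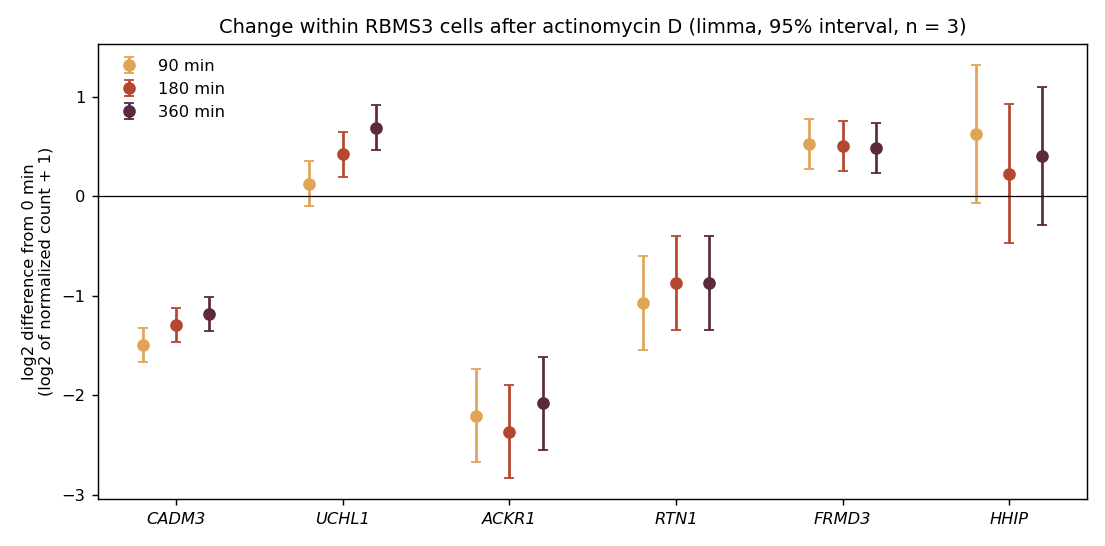
Log2 difference from 0 min within RBMS3 cells for each member at 90, 180 and 360 min (log2 of normalized count + 1), with limma's 95% interval, 3 libraries a group. CADM3, ACKR1 and RTN1 lie below 0 at all times, at -1.49, -2.20 and -1.07 at 90 min, FRMD3 lies above 0, UCHL1 moves from 0.13 to 0.69, and the HHIP intervals include 0; with scaling to ribosomal protein genes FRMD3 at 360 min was 0.080 and HHIP at 360 min was -0.0032.

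All 6 members passed the filter of a mean normalized count of at least 10, and 11814 genes were tested in RBMS3 cells. Against 0 min, 3 members were lower and 1 was higher at 90 min, where 7.53% of the genes tested were called lower and 9.99% higher (17.5% in either direction). At 180 min 3 were lower and 2 higher, against 13.4% and 16.3% of the genes tested (29.7% in all). At 360 min again 3 were lower and 2 higher, against 20.2% and 22.2% (42.4% in all). From 90 to 360 min 2 members were higher and none lower, where 10.3% and 9.42% of the genes tested were called (19.7% in all). The median of all genes was -0.0027 at 360 against 0 min and moved to -0.41 with scaling to ribosomal protein genes. That scaling also moved the share of calls that were higher to 32.2% at 180 min, 16.7% at 360 min and 1.47% between 90 and 360 min, against 54.9%, 52.4% and 52.3% with the table's own scaling.

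**Figure D3:**
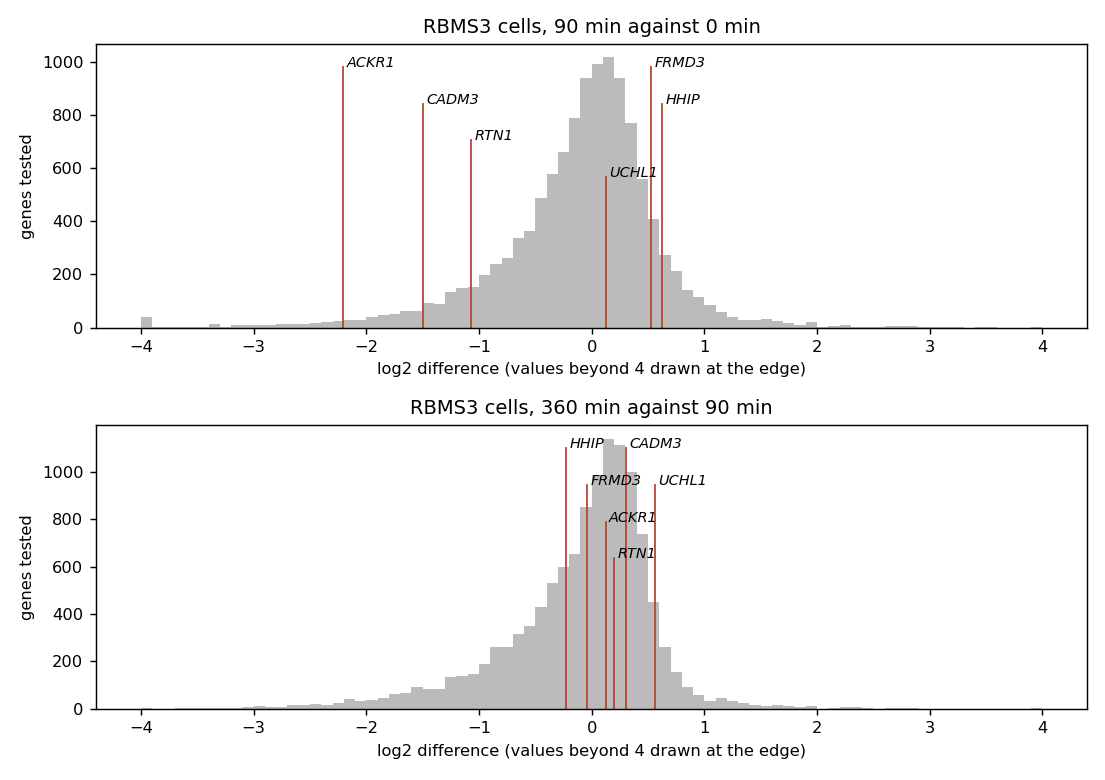
Histograms of the log2 difference of 11814 genes tested within RBMS3 cells, 90 against 0 min above and 360 against 90 min below, with the 6 members as red lines (bars count genes; line heights carry no value). ACKR1, CADM3 and RTN1 stand in the left tail above, at -2.20, -1.49 and -1.07, and near the middle below, at 0.12, 0.31 and 0.20 (-0.30, -0.12 and -0.22 with scaling to ribosomal protein genes).

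Ratios between members in the same library do not depend on how libraries were scaled, but keep any factor that differs between genes. The ratio of UCHL1 to CADM3 was 0.253 ± 0.030 at 0 min, 0.777 ± 0.094 at 90 min, 0.827 ± 0.077 at 180 min and 0.924 ± 0.032 at 360 min in RBMS3 cells (SD, n = 3 each). No 0 min library overlapped a later one. The ratio of FRMD3 to CADM3 was 0.226 ± 0.024 at 0 min, 0.929 ± 0.205 at 90 min, 0.786 ± 0.077 at 180 min and 0.717 ± 0.057 at 360 min. The ratio of ACKR1 to CADM3 was 0.232 ± 0.011 at 0 min, 0.144 ± 0.039 at 90 min, 0.109 ± 0.0086 at 180 min and 0.127 ± 0.035 at 360 min. Ratios show unequal change and not that either gene was constant.

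Over the 12 RBMS3 libraries, Pearson's r of the log2 values was 0.95 for CADM3 and ACKR1, 0.91 for ACKR1 and RTN1, 0.87 for CADM3 and RTN1, and -0.91 for CADM3 and FRMD3. UCHL1 and HHIP were at 0.13. These values describe 12 libraries that share 4 times and 1 scaling. Among 8928 other genes, those closest to CADM3 were KRT14 (r = 0.994), BGN, a matrix proteoglycan (0.993), and NNMT, a nicotinamide methyltransferase (0.991). Those closest to UCHL1 were UQCRC2 (0.975) and ATP5MC1 (0.971), subunits of the mitochondrial respiratory chain and ATP synthase, and RPL27A, a ribosomal protein (0.974). Those closest to ACKR1 were MT-CO1, a mitochondrial cytochrome oxidase subunit (0.975), COL18A1, a collagen (0.968), and SGPP2, a sphingosine phosphatase (0.966). MED1, HLA-B and MT1X were closest to RTN1 (0.940, 0.933 and 0.921), and CARD19, NCOA4 and PSAT1 to FRMD3 (0.961, 0.930 and 0.927). HHIP had no gene above 0.835, its value with NAA25.

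Estimated reads from the transcript files gave the later times a count-based measure that used no 0 min library. For CADM3 and UCHL1 it was not independent of the series table. In RBMS3 90 min replicate 1 the table value divided by the scaled reads was 6.81 for both genes. These files were used for the 9 RBMS3 libraries at 90, 180 and 360 min. UCHL1 had 706, 732 and 965 reads at 90 min, 1122, 473 and 911 at 180 min, then 1076, 995 and 917 at 360 min, which is 100.2 ± 6.85, 115 ± 3.73 and 128 ± 5.03 in RPM (reads scaled to a common library total) in that order of times (SD, n = 3 each). The log2 fold change of 360 against 90 min was 0.52 ± 0.08 (SE; edgeR quasi-likelihood adjusted p = 1.72e-04) with TMM scaling, which RPM does not have, and 0.36 (adjusted p = 0.0027) with libraries scaled to their totals. CADM3 had 129.7 ± 11.8 RPM at 90 min, 139.95 ± 8.96 at 180 min and 139 ± 2.05 at 360 min, and its 360 against 90 min value was 0.26 ± 0.08 (edgeR adjusted p = 0.026), lost without 90 min replicate 1 or 2 or 360 min replicate 1 or 2 (0.070 to 0.12) and with scaling to library totals (0.098; adjusted p = 0.44). Scaling to library totals, an alternative chosen after seeing the data, moved the median of all genes at 360 against 90 min to -0.16, against -0.0034 with TMM, and the share of calls that were higher to 18.1%, against 47.7%. The other 4 members did not pass at 360 against 90 min, where 24.2% of 12364 genes were called (11.5% higher and 12.7% lower), and none of the 6 passed at 180 against 90 min in edgeR (2 of 6 at an unadjusted p under 0.05, CADM3 and UCHL1), where 2.94% were called (0.995% higher and 1.94% lower). UCHL1 was at 0.28 ± 0.08 there (edgeR adjusted p = 0.077).

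HHIP differed between the 2 kinds of file. In RPM it was 181, 173 and 183 at 90 min, 163, 184 and 172 at 180 min, then 168, 153 and 177 at 360 min. Its coefficient of variation over the 9 RBMS3 libraries was 5.91% in RPM and 29.6% in the table. The table value divided by the RPM ran from 5.73 to 11.1 for HHIP, a 1.94-fold range, against 1.15-fold to 1.18-fold for the other 5 members. The transcript HHIP-201 held 87.5% to 93.3% of the gene's reads. HHIP at 360 against 90 min was 0.05 ± 0.07 in edgeR with TMM scaling (adjusted p = 0.70), -0.11 with scaling to library totals (adjusted p = 0.33) and -0.23 ± 0.32 in the table (limma adjusted p = 0.69). The part of the transcript assignment in this spread was not tested. In LacZ cells at 0 min HHIP was at 1.99, 2.14 and 0 in RPM, and at 5.0, 5.35 and 0 in the table. No estimated reads were used for LacZ cells at later times.

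**Figure D4:**
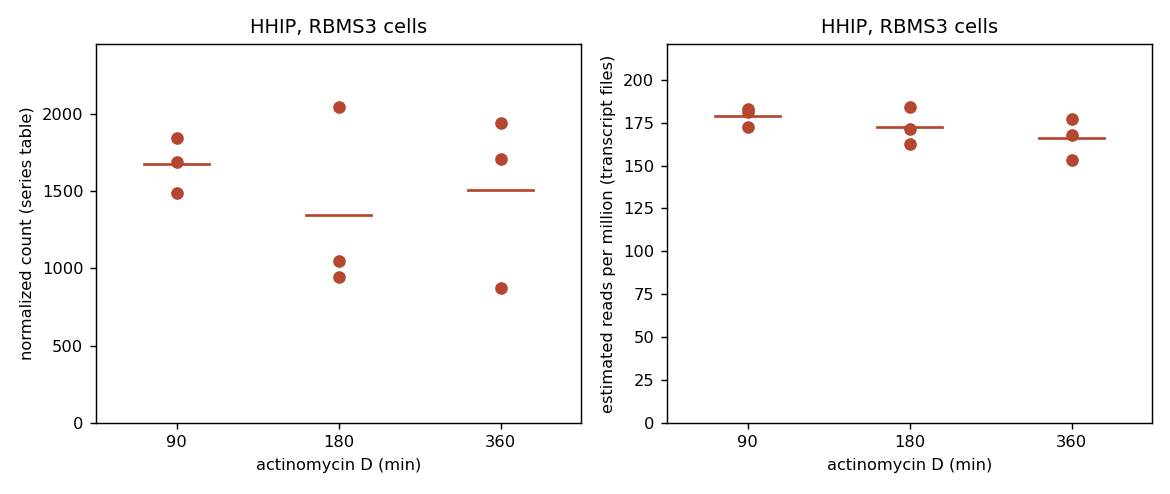
HHIP in the 9 RBMS3 libraries at 90, 180 and 360 min, as normalized count (left) and as estimated RPM (right), points for libraries and bars for means, both axes from 0. The left values spread from 876 to 2046 and the right values from 153 to 184.

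One transcript held nearly all reads of each other member over those 9 libraries: CADM3-202 and UCHL1-201 held 100%, FRMD3-201 99.3%, ACKR1-202 99.1% and RTN1-203 96.6%. Reads from the 3' end cannot separate transcripts that end at the same place.

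Neighbours of the members were read from the RefSeq gene order. CADM3 and ACKR1 are near neighbours on chromosome 1, with only RNA5SP60 and CADM3-AS1 between them, both at 0 in every RBMS3 library and at 1.02 or less in LacZ libraries. Of 52 neighbouring genes 34 were in the table and 10 passed the filter. HHIP-AS1 is the antisense RNA next to HHIP. At 0 min it was at 44.0, 49.0 and 66.7 in RBMS3 cells and 0, 0 and 4.94 in LacZ cells. The log2 difference was 4.88 ± 0.63 (SE, n = 3 each). The groups did not overlap at any time, and the later differences were 5.35 (90 min), 5.33 (180 min) and 6.0 (360 min). The size of each, also at 0 min, depends on the pseudocount, since most LacZ libraries were at 0, and all 3 at 360 min. HHIP-AS1 passed the filter through its RBMS3 libraries only, so its differences between the lines are given as a description. HHIP-AS1 was 0.0488 ± 0.0061 of HHIP at 0 min, 0.0368 ± 0.0100 at 90 min, 0.0489 ± 0.022 at 180 min and 0.0492 ± 0.030 at 360 min in RBMS3 cells (SD, n = 3 each), and single libraries ran from 0.0233 to 0.0837. The lowest was 180 min replicate 2, with HHIP at 2046 in the table and 184 RPM. The highest was 360 min replicate 2, with HHIP at 876 and 153 RPM. These ratios therefore carry the spread of HHIP in the table, which was wider than in RPM. Counting is not stated to use strand, so reads from HHIP and HHIP-AS1 where they overlap cannot be told apart.

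LIMCH1, the next annotated gene after UCHL1 and a regulator of non-muscle myosin, was at 229 ± 43.2 in RBMS3 cells and 28.4 ± 18.1 in LacZ cells at 0 min, a log2 difference of 3.15 ± 0.52 (SE, n = 3 each; limma adjusted p = 5.57e-05), and also passed at 90, 180 and 360 min (3.09, 3.13 and 2.43). RASEF, near FRMD3, was lower, at 6.36 ± 3.53 in RBMS3 cells and 43.9 ± 2.93 in LacZ cells at 0 min (log2 -2.71; adjusted p = 0.016; 0.057 without RBMS3 0 min replicate 1), and also passed at 90, 180 and 360 min (-2.59, -3.28 and -4.27), the 90 min call being lost without RBMS3 90 min replicate 2 or 3 or LacZ 90 min replicate 1 or 2 (0.051 to 0.14). Near RTN1, L3HYPDH was higher (2.14; limma adjusted p = 0.011; 0.052 without RBMS3 0 min replicate 2, and 1.06 and 0.087 without LacZ 0 min replicate 2) and DHRS7 lower (-1.20; 0.0031) at 0 min. L3HYPDH did not pass at 90, 180 or 360 min (0.15, -0.15 and -0.60). DHRS7 passed at 90 min (-0.92; limma adjusted p = 0.023; lost without RBMS3 90 min replicate 1 or 3 or LacZ 90 min replicate 2 or 3, at 0.051 to 0.13) and not at 180 or 360 min (-0.07 and -0.50). JKAMP and PCNX4, and IDNK near FRMD3, passed at no time. IFI16, an interferon-inducible DNA sensor near CADM3, did not pass at 0 min, at 751 ± 147 in RBMS3 cells and 577 ± 342 in LacZ cells (0.51; adjusted p = 0.27). It was lower at 90 min, at 254 ± 72.2 in RBMS3 cells and 699.9 ± 206 in LacZ cells (-1.45; limma adjusted p = 0.0031), and at 180 and 360 min (-1.66 and -1.44; 8.64e-04 and 0.0029). Near HHIP, ANAPC10 was lower at 0 min (-0.76; limma adjusted p = 0.039; 0.060 with no filter, and lost without RBMS3 0 min replicate 2 or 3 or LacZ 0 min replicate 2 or 3). At 0 min 18.6% of 12090 genes other than the members were called higher and 18.9% lower (37.5% in all). Scaling to ribosomal protein genes moved the median of all genes at 0 min to -0.30 and the share of calls that were higher to 25.4%, against 49.6% with the table's own scaling.

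Relatives of the members were compared between the lines at 0 min, where the same 18.6% and 18.9% are the background. The lists were chosen with earlier results known. Of 9 adhesion molecules of the CADM and nectin families 6 were tested, 1 was higher and 3 were lower, with a median log2 difference of -0.15 against 0.0061 over all genes. CADM1, an epithelial relative of CADM3, was at 10.4 ± 2.68 in RBMS3 cells and 233 ± 62.5 in LacZ cells (a log2 difference of -4.36 ± 0.49, SE, n = 3 each; limma adjusted p = 5.08e-07), and was also lower at 90, 180 and 360 min (-2.83, -3.57 and -2.60). NECTIN3 was higher, at 234 ± 48.6 in RBMS3 cells and 64.2 ± 16.8 in LacZ cells (1.86 ± 0.24), and NECTIN1 lower (-0.89 ± 0.16). CADM2 was at 0 in all 12 RBMS3 libraries and in 11 of 12 LacZ libraries.

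Of the 7 ubiquitin C-terminal hydrolases and ubiquitin genes 2 were lower at 0 min, both by less than 0.5 on the log2 scale. UCHL5, a proteasome-associated hydrolase, was at 689 ± 58.0 in RBMS3 cells and 937 ± 239.5 in LacZ cells (-0.42; limma adjusted p = 0.026; 0.061 and 0.097 without RBMS3 0 min replicates 2 and 3, and -0.22 and 0.19 without LacZ 0 min replicate 2), and UBB was lower (-0.35; 0.0058; -0.20 without LacZ 0 min replicate 2). UCHL3 did not pass (-0.30; adjusted p = 0.081).

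Of 17 atypical chemokine receptors and ACKR1 ligands 6 were tested and 10 were under 10 in every library. CXCL5, a neutrophil-attracting chemokine that ACKR1 can bind, was at 468 ± 69.5 in RBMS3 cells and 16.4 ± 3.56 in LacZ cells at 0 min (log2 4.76 ± 0.28, SE, n = 3 each; limma adjusted p = 2.05e-11), the 1 call at that time. At each later time 1 ligand was higher and 3 were lower, where 14.8% to 17.5% of all genes were called higher and 15.0% to 17.7% lower. At 180 min the CXCL8 call (-2.14; limma adjusted p = 0.011) was lost without RBMS3 180 min replicate 1 (0.080) or LacZ 180 min replicate 3 (0.065). CXCL1 was at 491 ± 21.0 in RBMS3 cells and 356 ± 100.3 in LacZ cells at 0 min, which did not pass (0.51; adjusted p = 0.21), and at 12.1 ± 2.27 in RBMS3 cells and 190.0 ± 14.1 in LacZ cells at 360 min (-3.88; 2.63e-09). CXCL3 (-3.98; 1.52e-06) and CXCL8 (-3.07; 5.75e-04) were also lower at 360 min.

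Of 20 reticulons and other shapers of the endoplasmic reticulum 16 were tested, 6 were higher and 2 lower at 0 min, with a median log2 difference of 0.19. REEP2 was at 43.6 ± 5.25 in RBMS3 cells and 4.14 ± 3.15 in LacZ cells (3.32 ± 0.80), and LNPK, which stabilizes tubule junctions, at 537 ± 86.2 and 102.0 ± 14.0 in the same order (2.38 ± 0.50). RTN4R, a receptor for the reticulon RTN4, was lower (-1.35; limma adjusted p = 0.011; 0.069 without RBMS3 0 min replicate 2), as was REEP5 (-0.34; 0.032; 0.076 to 0.13 without RBMS3 0 min replicate 1 or 2 or LacZ 0 min replicate 1 or 3). RTN3 was at 898 ± 55.4 in RBMS3 cells and 679.6 ± 63.4 in LacZ cells (0.40; 0.0034), and RTN4, at 3566 ± 135 and 3831 ± 576 in that order, did not pass (-0.09; 0.39).

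Of 25 other FERM domain genes 17 were tested, 2 were higher and 5 lower at 0 min, with a median of -0.53. EPB41L1, a neuronal band 4.1 protein, was at 575 ± 94.6 in RBMS3 cells and 85.6 ± 34.6 in LacZ cells (a log2 difference of 2.79 ± 0.31, SE, n = 3 each), and FARP1 at 291 ± 42.8 and 74.2 ± 17.8 in the same order (1.97 ± 0.34). FRMD4B was at 44.1 ± 8.92 in RBMS3 cells and 352 ± 38.6 in LacZ cells (-2.98 ± 0.27), and FRMD5 at 3.89 ± 0.731 and 32.1 ± 3.88 (-2.76 ± 0.56), with limma adjusted p = 5.28e-04 for FRMD5 and smaller for the other 3 genes.

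The hedgehog pathway, on which HHIP acts, showed no call among its 10 tested genes at 0 min in limma (0 of 10 with the adjusted p and 1 of 10 at an unadjusted p under 0.05). The ligand genes SHH and IHH were at a mean of 0 in both lines at 0 min. PTCH1, the receptor and a target gene, was at 9.70 ± 3.56 in RBMS3 cells and 22.6 ± 27.3 in LacZ cells at 0 min, and did not pass at any time. KIF7, a cilium kinesin that regulates GLI factors, passed at each later time, at 92.6 ± 7.23 in RBMS3 cells and 32.9 ± 3.65 in LacZ cells at 90 min (1.47; limma adjusted p = 0.0098) and at 72.0 ± 10.6 and 21.3 ± 6.06 at 360 min (1.74; 0.0024). In all, 2 genes were higher at 90 min, 5 at 180 min and 3 at 360 min, against 14.8%, 16.2% and 17.5% of all genes called higher and 29.8%, 33.0% and 35.2% called in either direction, and BOC, a co-receptor, was lower at 360 min, at 0.314 ± 0.273 in RBMS3 cells and 81.6 ± 96.9 in LacZ cells (-5.11; 3.88e-05). The calls of SUFU, GLI1, GLI3, HHAT and STK36 were each lost when at least 1 single library was left out, and those of KIF7 were not. BOC had 1 LacZ library at 360 min at 191.6, against a mean of 29.1 over all LacZ libraries. It was tested in only 23 of the 24 fits with 1 library left out, as its mean did not always reach 10. KIF7, BOC and the chemokine genes at later times were chosen for naming after their values were seen.

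**Figure D5:**
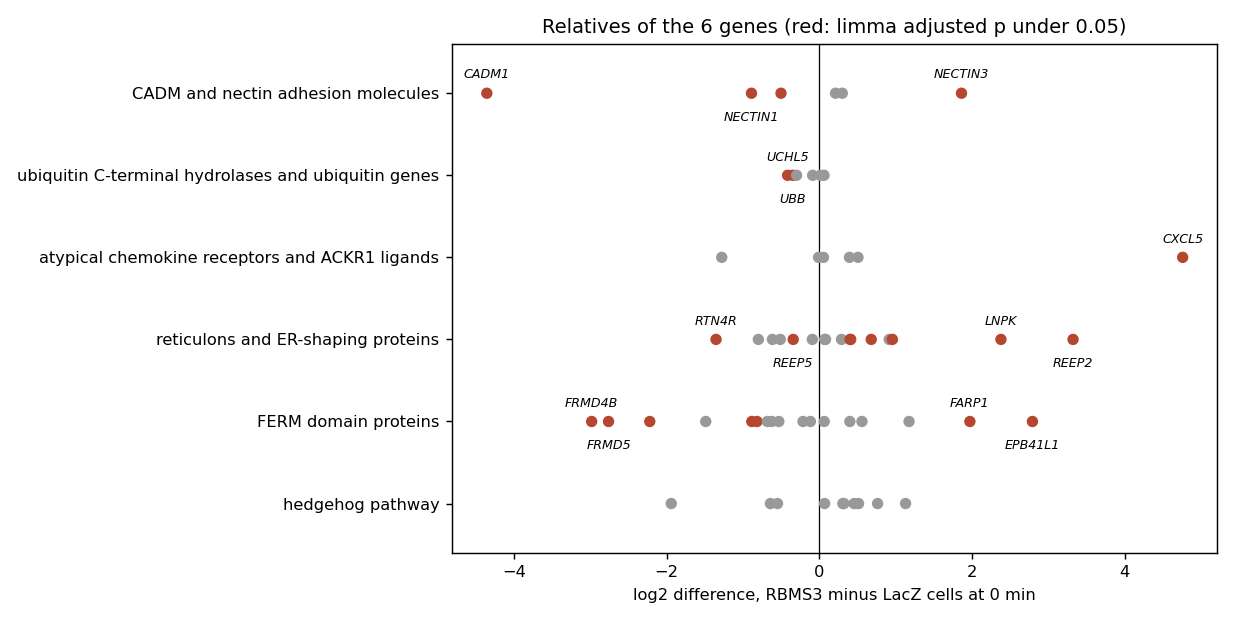
Log2 difference at 0 min, RBMS3 minus LacZ cells, for tested genes of 6 lists related to the members, 1 point a gene with 1 ubiquitin list gene not drawn, red where limma's adjusted p was under 0.05. CADM1 lies at -4.36, CXCL5 at 4.76 and EPB41L1 at 2.79, and no hedgehog pathway gene is red.

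CADM3, UCHL1 and RTN1 are known from neurons, and ACKR1 from red cells and endothelium, so markers of those types were set beside them. Of 26 neuronal and neuroendocrine markers 7 were at 0 in all libraries, CHGA among them, 9 were tested, 3 were higher and 2 lower at 0 min, and their summed level was 1750.2 to 1964 in RBMS3 cells and 1234 to 1295 in LacZ cells at 0 min. The ranges of that sum overlapped at 90 min, at 1266 to 1426 in RBMS3 cells and 1145 to 1353 in LacZ cells, did not at 180 min, at 1353 to 1437 in RBMS3 cells and 1183 to 1236 in LacZ cells, and overlapped at 360 min, at 1426 to 1568 in RBMS3 cells and 1389 to 1660.0 in LacZ cells. At 0 min MAP2, a dendrite protein, was at 223 ± 40.6 in RBMS3 cells and 50.7 ± 11.3 in LacZ cells (a log2 difference of 2.12 ± 0.39, SE, n = 3 each; limma adjusted p = 1.98e-04), VGF was higher (1.70 ± 0.57; 0.022, and 0.074 to 0.076 without RBMS3 0 min replicate 1 or 3 or LacZ 0 min replicate 2), and L1CAM (-2.29 ± 0.41) and SCG5 (-1.71 ± 0.44; -1.11 without RBMS3 0 min replicate 2) were lower. Of 17 endothelial markers 11 were under 10 in every library, CDH5 was at 0 throughout, and ROBO4 was the 1 tested, at 75.9 ± 3.35 in RBMS3 cells and 39.4 ± 2.30 in LacZ cells at 0 min (0.93; limma adjusted p = 0.026; 0.12 with scaling to ribosomal protein genes, and lost without any 1 RBMS3 0 min library or LacZ 0 min replicate 1, at 0.051 to 0.067). Of 13 erythroid markers 10 were under 10 in every library, and their summed level was 60.2 to 61.4 in RBMS3 cells and 30.7 to 51.5 in LacZ cells at 0 min. That sum overlapped at 90 min, at 34.5 to 50.1 in RBMS3 cells and 15.3 to 35.9 in LacZ cells. It did not at 180 min, at 24.6 to 41.5 and 5.71 to 23.7 in that order. At 360 min it overlapped again, at 11.5 to 44.2 in RBMS3 cells and 13.9 to 26.6 in LacZ cells. Of 14 leukocyte markers 11 were under 10 in every library, and CD68 was lower in RBMS3 cells (-1.34; limma adjusted p = 0.017; 0.070 without LacZ 0 min replicate 2). The part of such cells in the members' levels was not tested.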

How the data were processed

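QuantSeq 3' libraries of 75-base single reads were made from 24 samples, per the labels' protocols. The submitters' processing notes name DESeq2 1.32.0, Salmon 1.4.0 and Trim Galore 0.6.6. Neither genome build nor strand setting is given in the sources used here. The series table held the authors' normalized counts, a signal scaled per library, and the deposited transcript files held estimated counts. In RBMS3 180 min replicate 2 the table value divided by the RPM was 7.19 for CADM3 and 11.1 for HHIP. The factor between them was thus not the same for every gene of a library. Values in the table are relative to the library, so an RNA that decays slowly can gain relative level. The name of 12 of the 24 transcript files disagreed with the recorded sample, so 12 files without such a disagreement were used (LacZ at 0 min and RBMS3 at 90, 180 and 360 min; 4426445 to 9856338 reads). The disagreement concerns RBMS3 at 0 min and LacZ at 90, 180 and 360 min. Comparisons that use those groups rest on the column names of the series table. All 24 files correlated best with the column of their own name. Transcripts were summed to genes with GENCODE 29, which matched 95.2% to 95.7% of reads, and rounded to whole numbers.

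Differences were tested with limma 3.58.1 on log2(normalized count + 1) for genes with a mean of at least 10, with a trend and no robust step, on the 12 RBMS3 libraries for time and on all 24 for the lines. Fold changes on this scale understate those of low genes. LacZ libraries were left out of the tests for time because members near 0 there would set the spread. Estimated counts were tested with edgeR 4.0.16 (quasi-likelihood, TMM, R 4.3.3), with DESeq2 1.42.0 as an alternative. P-values were Benjamini-Hochberg adjusted over all genes tested and called under 0.05. The tests were also run on simulated counts with the same setting of spread for every gene, which cannot show how they do on these data. Python 3.11.15, pandas 2.3.3 and numpy 2.4.6 did the rest. The members were in the fit between the lines, which chose them, and no p-value of theirs is reported there.

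The members and lists were chosen with earlier results of these data known. Genes were named by rule: the members, the passing genes with the 2 largest rises and 2 largest falls of each list at 0 min, the 3 genes most like each member, 5 neighbours on each side, the 5 other on-pattern genes with the highest RBMS3 mean, RBMS3 and PRRX1. Genes named outside the rule (RTN3, RTN4, UCHL3, PTCH1, SHH, IHH, CADM2 and marker genes at 0) were chosen after their values were seen. The result of 1 list gene is not reported here.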

Additional observations from a re-analysis of the deposited data

Results flagged for a closer look

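COL18A1, KRT14 and MT-CO1, the genes near CADM3 and ACKR1 by likeness over the RBMS3 libraries, lay on opposite sides of LacZ cells at different times, with every RBMS3 library on the same side at each time. The log2 difference, RBMS3 minus LacZ cells, of COL18A1 was 1.71 at 0 min and -1.26 at 180 min. That of KRT14 was 1.26 at 0 min and -1.49 at 360 min. That of MT-CO1 was 0.28 at 0 min and -0.73 at 360 min. The difference between the times was not tested.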

How the results depend on the processing

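The falls of CADM3, ACKR1 and RTN1 against 0 min kept their direction and call under all alternatives run, except RTN1 at 180 min with all 24 libraries in the model (-0.87; limma adjusted p = 0.053). That model also ended the calls of FRMD3 (0.53, 0.51 and 0.49 at 90, 180 and 360 min), UCHL1 (0.42 at 180 min, 0.69 at 360 min, 0.56 for 360 against 90 min) and CADM3 (0.31 for 360 against 90 min). The log2 differences themselves were unchanged in that model. Ribosomal protein scaling gave UCHL1 0.25 and FRMD3 0.34 at 180 min, FRMD3 0.080 and HHIP -0.0032 at 360 min, and for 360 against 90 min CADM3 -0.12, UCHL1 0.14, ACKR1 -0.30, RTN1 -0.22 and FRMD3 -0.47, the last now past the threshold. It gave PCNX4 -0.040 at 0 min between the lines. The cause was not tested. Leaving out 1 library gave ranges of -0.12 to 0.44 for HHIP at 180 min, and for 360 against 90 min 0.25 to 0.38 for CADM3, -0.057 to 0.37 for ACKR1, -0.083 to 0.40 for RTN1, -0.17 to 0.025 for FRMD3 and -0.45 to 0.13 for HHIP. In edgeR the ranges for 360 against 90 min were 0.20 to 0.33 for CADM3, -0.090 to 0.31 for ACKR1, -0.10 to 0.34 for RTN1 and -0.16 to 0.025 for FRMD3, and for 180 against 90 min -0.088 to 0.35 for RTN1, -0.10 to 0.081 for FRMD3 and -0.024 to 0.054 for HHIP. JKAMP ranged over -0.30 to 0.88, with -0.30 without LacZ 0 min replicate 2. The edgeR calls for 180 against 90 min were 363, 617 with no filter, 495 in DESeq2 and 104 to 355 with 1 library left out. With libraries scaled to their totals, an alternative also chosen after seeing the data, edgeR gave for 360 against 90 min CADM3 0.098, ACKR1 -0.056, RTN1 -0.027 and HHIP -0.11, and for 180 against 90 min FRMD3 -0.071 and HHIP -0.054. Without the 0 min libraries, an alternative chosen after seeing the data, the 360 against 90 min adjusted p was 0.036 for CADM3 and 0.0018 for UCHL1. Same-numbered libraries did not deviate together (r -0.11 to 0.12), and the replicate block gave 1911 calls at 90 min (2070 without), 3347 at 180 min (3507), 4875 at 360 min (5013), 2154 for 360 against 90 min (2333) and, with the members counted, 4528 between the lines at 0 min (4534). In edgeR the block gave 248 calls for 180 against 90 min (363 without) and 2829 for 360 against 90 min (2990). ACKR1 rested on 64 to 165 estimated reads per library, which limits the smallest change that could be seen.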
